A study of Caenorhabditis elegans with 4 samples.

Results

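The regions described here are those of a merged UNC-62 peak list whose summit lay in a coding exon. Chromatin immunoprecipitation followed by sequencing had been performed on whole L3 larvae of Caenorhabditis elegans. A summit counted as a coding exon summit when it fell in the coding part of an exon of a protein-coding gene. It also had to lie outside every 5' UTR and outside the promoter window, which ran up to 1000 bp upstream of any protein-coding start. By this rule 2128 of 18556 merged regions were coding exon regions, 11.5%. The rule used the position of the summit only, not its signal. The other 16428 regions had summits in promoters (5481), introns (5070), intergenic sequence (4984), 3' UTRs (619) and 5' UTRs (274).

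All larvae belonged to 1 group of 4 biological replicates of strain OP600, of mixed sex. The strain carries the mutation unc-119(ed3) and the insertion wgIs600, an integrated transgene with an unc-119 rescue and unc-62 fused to TY1, EGFP and FLAG tags. The labels describe the target as eGFP-tagged UNC-62 and give unc-62 as the antibody, so whether endogenous UNC-62 was also precipitated is not known. An untagged strain was not analysed here. The labels give microtip sonication for replicates 3 and 4. For replicates 1 and 2 they name a stock center as source and list fragments of 150 to 350 bp. Whole larvae mix all tissues, so a weak region in most cells and a strong one in few cells cannot be told apart.

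UNC-62, a TALE-class homeodomain factor, is the nematode relative of the MEIS and Homothorax proteins, which bind DNA with PBX-type and Hox partners. It is known for roles in embryonic patterning, in vulval development and, in adults, in the intestine, where it promotes expression of yolk protein genes. Binding sites of such factors are mostly sought in promoters, introns and intergenic enhancers. A coding exon is under selection for its protein, is richer in G and C than its surroundings, and can also hold regulatory sequence.

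Coding exon summits were set beside all coding bases at which such a summit could have been found. These eligible bases numbered 21072893, or 21.02% of the nuclear genome. Each replicate's own list was used for the comparisons across replicates, taking its 18556 nuclear regions of highest signal, as many as the merged list holds. Signal is the authors' value per region and has no stated unit. Its scale differed between lists, so lists were compared by rank, with rank 1 the highest.

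The sequences below are 30-base windows around the TGACAG core of MEIS-type proteins, or around the TGATTGAT site of PBX with Hox partners, in coding exon regions. They are shown because MEIS-type proteins such as UNC-62 and their partners are known to read such sites. Shown are all windows from the 5000 regions of highest merged signal, outside 1 chromosome whose sequence is not printed, where at least 3 replicates covered the region. The C40H1.3 window was added after its sequence was seen. Sequence is the RefSeq forward strand of ce11 (WBcel235), 5' to 3', and capitals mark the motif, which reads CTGTCA or ATCAATCA where it lies on the reverse strand.
saeg-1: gcatctctgattTGACAGgttggccacttg
igcm-2: gtgtaccaaccgCTGTCActctttctgaca
nhr-14: actttgtcctttCTGTCAtttcaggagagt
sad-1: tggctgtcttcaCTGTCActttctgccgtc
F14D12.1: ccaacgacgccATCAATCAatcaaagcgag
col-90: aatgtgcaattgTGACAGtaactctcaagg
snt-1: tgtaaataaagTGATTGATgtgaaagacgt
ZK1321.4: cagcggatatttCTGTCAgatcggttcatc
F33H1.4: cctaactaataaTGACAGgcagaggccatt
C40H1.3: acaaatgtgattTGACAGgttcgtccttgt

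The windows came from genes of varied function. saeg-1 (chrV:10860816-10860845) is known from suppression of activated EGL-4 kinase, and igcm-2 (chrX:6383246-6383275) encodes an immunoglobulin-type cell adhesion protein. sad-1 (chrX:13491043-13491072) encodes a kinase of synapse formation and neuronal polarity, snt-1 (chrII:6811925-6811954) encodes synaptotagmin, and col-90 (chrIII:7949135-7949164) encodes a cuticle collagen. The nhr-14 window (chrX:8474237-8474266) belongs to a nuclear hormone receptor gene. There the motif lay in non-coding sequence beside the exon, and 7 of the 30 bases were coding. In F33H1.4 (chrII:10174663-10174692) 19 of the 30 bases were coding. The windows of F14D12.1 (chrX:5605186-5605215), ZK1321.4 (chrII:9773822-9773851) and C40H1.3 (chrIII:9328937-9328966) were coding throughout, as were those of saeg-1, igcm-2, sad-1, col-90 and snt-1. Among all 2128 coding exon regions, 98 held TGACAG within 50 bp of the summit, and in 90 of these the motif nearest to the summit was wholly coding. TGATTGAT lay in 24 regions and was wholly coding in 23.

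The windows of saeg-1 and C40H1.3 shared 14 bases in a row, tgattTGACAGgtt, the longest run shared by any of 120 pairs among the 16 windows of this kind. The run occurs 4 times in the nuclear genome on either strand. In saeg-1 the motif started 4 bp before the summit of a region that ranked 328 in the merged list and was covered in 4 replicates. In C40H1.3 it started 33 bp after the summit of a region that ranked 2079 and was covered in 2 replicates. The pair was picked out after the sequences were seen, so the run is a description of these sites only.

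Coding exon regions were weak in the merged list. Their signal ran from 10.7 to 121.7 with a median of 12.99 and quartiles of 11.6 and 15.4, against a median of 14.4 and quartiles of 12.2 and 19.2 for the other 16428 regions. The median rank was 11629 for coding exon regions and 8920 for the others. Of the coding exon regions, 14 (0.658%) were among the 1037 optimal peaks, which passed the authors' threshold on the irreproducible discovery rate, against 1023 (6.23%) of the others and 5.59% of the whole merged list. A q-value under 0.05 was listed for 81 (3.81%), against 2960 (18.02%) of the others and 16.4% of all. The last coding exon region inside the optimal list, in faxc-1, ranked 919 with a signal of 39.3. The first outside, in B0379.6, ranked 1056 with 36.6. All 2128 regions were 356 bp wide with the summit in the middle, so that most reached past the exon that held it, whose median length was 214 bp.

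Of the 14 coding exon regions in the optimal list, 7 had their summit within 500 bp downstream of a start of the same gene. Y18D10A.4 (I, 12815828 to 12816183) had the highest signal of all coding exon regions, 121.7, with its summit 102 bp downstream of the start. It ranked 149, 66, 27 and 10 in replicates 1 to 4, so it was among the highest regions of each replicate. C48E7.1 (I, 6260136 to 6260491), with a signal of 63.5 and the summit 65 bp downstream, ranked 564, 341, 546 and 160. It too was high in all replicates, and it held both TGACAG and the degenerate PBX-type motif TGATNNAT near its summit. saeg-1 (V, 10860654 to 10861009) had a signal of 60.2 and a summit 26 bp downstream of an internal start. Its ranks were 354, 250, 97 and 8413, so replicate 4 stood apart. ZK112.4 (III, 7729544 to 7729899; signal 51.96), a gene with 1 coding exon, ranked 1018, 117, 2217 and 197.

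The other near-start regions of the optimal list were less even. tag-196 (V, 8594940 to 8595295; signal 48.8), which encodes a cathepsin-type protease, ranked 687, 4361, 2486 and 16239. The cuticle collagen gene col-103 (IV, 763478 to 763833; signal 39.8) had its summit 22 bp downstream of the start and ranked 1054, 1226, 8864 and 832. faxc-1 (II, 12264025 to 12264380) had its summit 11 bp downstream and ranked 2107, 1037, 2030 and 9459. These 3 regions were each among the 1037 highest regions of 1 replicate only. The other 4 near-start regions were among the 1037 highest in 3 or 4 replicates.

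The remaining 7 lay deeper in genes, more than 1000 bp from the start of their own gene. The region in pks-1 (X, 5429369 to 5429724), which encodes a large polyketide synthase, had the second highest signal, 81.2. Its summit lay in coding exon 22 of 31, 15737 bp downstream of the start. It was within the first 115 ranks of replicates 1 and 2, and ranked 463 in replicate 4 and 20396 in replicate 3, so it was far lower in replicate 3 than in the others. acy-4 (V, 5628031 to 5628386; signal 62.6), which encodes an adenylyl cyclase, ranked 315, 935, 735 and 5184, with the summit in coding exon 9 of 19. F01F1.3 (III, 5874200 to 5874555; signal 57.8) ranked 304, 526, 843 and 2688. Both were among the 1037 highest regions of replicates 1 to 3 and lower in replicate 4.

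Among the deep regions, dos-3 (III, 835673 to 836028; signal 44.1), which encodes a Notch co-ligand of the DOS type, showed the reverse order, with ranks of 2829, 1449, 233 and 23. Its summit lay in coding exon 11 of 11. Regions in gstk-2 (IV, 7240434 to 7240789; 49.5), a glutathione S-transferase gene of the kappa class, and ncx-4 (I, 9810590 to 9810945; 43.7), a sodium and calcium exchanger gene, were listed in replicates 1 to 3 and not listed in replicate 4. They ranked 609, 2863 and 1286 in gstk-2, and 433, 1397 and 4979 in ncx-4. F10C2.3 (V, 12021352 to 12021707; 40.1) was likewise not listed in replicate 4 and ranked 835, 574 and 3121. Of all 14 regions, 10 were covered in all 4 replicates. TGATNNAT lay within 50 bp of 7 of the 14 summits, 50%, against 10.7% of their flanking windows. These are few regions, chosen by signal, and no test was made.

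**Figure D1:**
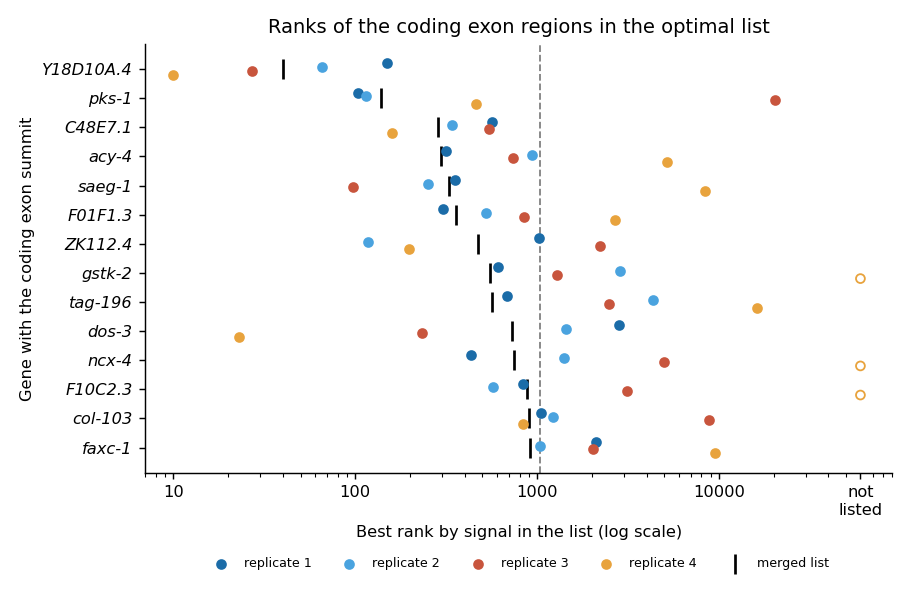
Best rank by signal (log axis) of each of the 14 coding exon regions of the optimal list in replicates 1 to 4 (filled points, 1 per replicate), with the rank in the merged list as a bar and the edge of the 1037 highest regions as a dashed line. Open points at the right mark regions that a replicate did not list; Y18D10A.4 and C48E7.1 lie left of the dashed line in all 4 replicates, while gstk-2, ncx-4 and F10C2.3 were not listed in replicate 4.

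The first comparison asked how the share of coding exon summits changed with rank. In the merged list it was 1.35% of ranks 1 to 1037 (14 regions), 5.85% of ranks 1038 to 5000 (232), 11.8% of ranks 5001 to 10000 (588) and 15.1% of ranks 10001 to 18556 (1294). Each of these was below the 21.02% of the nuclear genome that eligible coding bases make up. In the replicates' own lists, the 1037 highest regions had a coding exon share of 1.35%, 3.28%, 4.15% and 11.9% in replicates 1 to 4, against 12.9%, 19.5%, 14.8% and 18.1% of the further ranks. The share was lower at high rank in 4 of 4 replicates, by a mean of 11.2 percentage points (5.16% ± 4.62 against 16.3% ± 3.01, SD, n = 4). The mean difference was -11.2 ± 4.13 points, with p = 0.125 by an exact two-sided sign-flip permutation test and 0.25 after Benjamini-Hochberg adjustment over 14 tests. With 4 replicates 0.125 is the smallest p this test can give, so no measure tested in this way could pass 0.05. Replicate 4 had the highest share at high rank, and replicate 2 alone exceeded the genome's coding share in bins of 1000 regions, all of them beyond rank 14000.

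**Figure D2:**
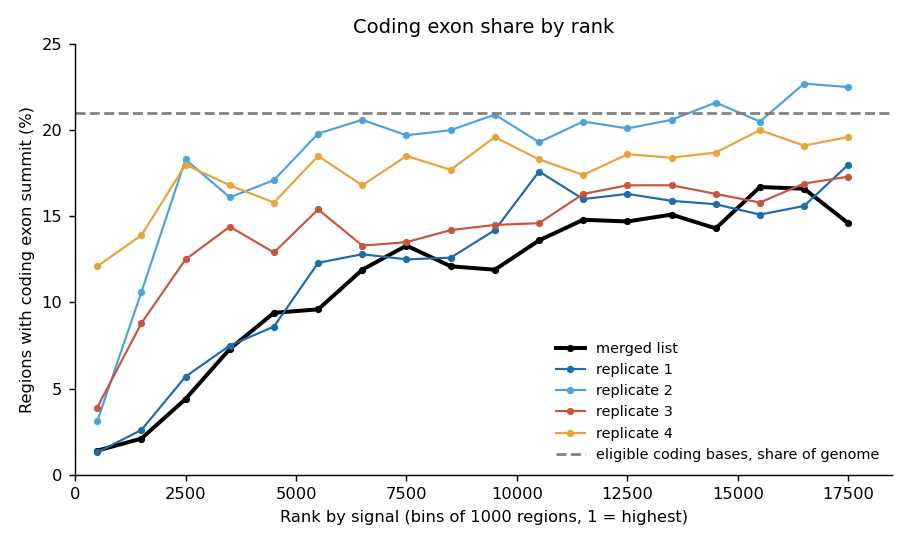
Percent of regions with a coding exon summit in successive bins of 1000 regions ranked by signal, for the merged list (black) and the own lists of replicates 1 to 4 (colors), with the 21.02% of the nuclear genome that is eligible coding sequence as a dashed line. All 5 lists start low, at 1.4% in the merged list and between 1.3% and 12.1% in the replicates, and climb with rank.

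Replicates 3 and 4 were set beside replicates 1 and 2 in how many coding exon summits they listed. The share among all 18556 regions was 14.2% and 17.7% in replicates 3 and 4, against 12.3% and 18.6% in replicates 1 and 2, a difference of 0.512 points (exact permutation test over replicates, two-sided, p = 1; the smallest possible is 0.333). The pairs of values overlapped, and the spread within each pair was larger than the difference between pairs. With the 5000 highest regions of each replicate the difference was 3.82 points (exact permutation test, p = 0.667). Among the 1037 highest regions the values did not overlap, at 4.15% and 11.9% in replicates 3 and 4, against 1.35% and 3.28% in replicates 1 and 2, with no test. Fragmentation, source and any other difference between these pairs of libraries cannot be told apart.

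The second comparison asked how often coding exon regions recurred. They were covered by the 18556 highest regions of replicates 1 to 4 in 45.5%, 33.5%, 36.5% and 32.2% of cases, against 60.3%, 42.9%, 47.3% and 37.1% of the other merged regions. Over all merged regions the same shares were 58.6%, 41.8%, 46.1% and 36.6%. Recurrence was lower for coding exon regions in 4 of 4 replicates, with a mean difference of -9.98 ± 4.07 points (SD, n = 4; exact sign-flip permutation test, p = 0.125, adjusted 0.25). The merged list was made from these same reads, so recurrence is a description of it and not separate support. Of the coding exon regions, 53 (2.49%) were covered in all 4 replicates, against 1414 (8.61%) of the others and 7.91% of all. A further 186 were covered in 3, 728 in 2, 917 in 1 and 244 in none.

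The 53 recurrent regions were set beside the other 2075 coding exon regions, with no test. Coverage counted any overlapping replicate region, whatever the class of its summit. Position near a start is therefore not separate from coverage, since such regions can reach into promoters. Over all coding exon regions, 122 (5.73%) had a stronger merged region with a promoter summit within 1000 bp, against 5.87% of the other merged regions. Their summits were within 500 bp downstream of a start in 21 cases (39.6%), against 26.6%, and in a first coding exon in 19 (35.8%), against 17.2%. TGACAG lay near 5 summits (9.43%), against 4.48%, and TGATNNAT near 12 (22.6%), against 9.11%. Their median signal was 20.5, against 12.9, so these regions were also the stronger ones, and the part of signal in these contrasts was not tested.

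The third comparison asked where within genes the summits lay. Coding exon summits were nearer to starts than coding sequence at large. Of the 2128 summits, 572 (26.9%) lay within 500 bp downstream of a start of the same gene, against 21.8% of eligible bases. Within 250 bp the shares were 17.6% and 12.5%. In the replicates' own lists the share within 500 bp was 23.7%, 21.7%, 27.2% and 24.01%, above that of eligible bases in 3 of 4 replicates and level with it in replicate 2. The mean excess was 2.36 ± 2.26 points (SD, n = 4; exact sign-flip permutation test, p = 0.25, adjusted 0.35), and without replicate 3 it was 1.35 points. The near-start share was larger among regions of high signal. Among each replicate's 5000 highest regions 30.4%, 23.8%, 31.4% and 27.2% of coding exon summits were within 500 bp, against 22.8%, 21.2%, 26.1% and 23.1% of those beyond rank 5000, higher in 4 of 4 replicates by 4.87 ± 2.12 points. In the merged list 50% of the 14 optimal regions were near a start, 32.8% of those ranked 1038 to 5000, 23.0% of those ranked 5001 to 10000 and 27.4% of the rest.

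**Figure D3:**
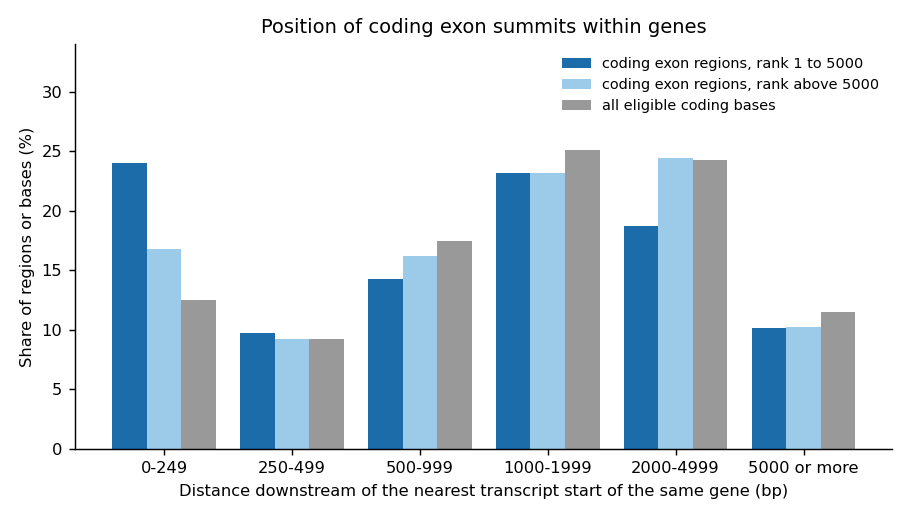
Share of coding exon regions ranked 1 to 5000 in the merged list (246 regions, dark bars), of those ranked above 5000 (light bars) and of all eligible coding bases (grey bars) by distance downstream of the nearest transcript start of the same gene. In the bin nearest to the start the shares were 23.98%, 16.8% and 12.5%. Between 2000 and 5000 bp they were 18.7%, 24.4% and 24.3%, lowest for regions ranked 1 to 5000 and about level for the others.

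First coding exons held more summits than their share of coding sequence, with 375 summits (17.6%), against 13.3% of eligible bases. Replicates 1 to 4 had 15.7%, 13.9%, 17.7% and 15.4% of their coding exon summits there, above eligible bases in 4 of 4, by 2.30 ± 1.56 points (SD, n = 4; exact sign-flip permutation test, p = 0.125, adjusted 0.25). The exons at the summits were shorter than the exon at a typical eligible base, with medians of 221, 264, 228 and 243 bp in the replicates, against 259 bp. The replicates averaged 239 ± 19.03 bp (SD, n = 4; exact sign-flip permutation test, p = 0.25, adjusted 0.35), and replicate 2 went the other way. The remaining summits were spread over whole genes. More than 1000 bp from any protein-coding start lay 1202 summits (56.5%), and 90 were over 5000 bp away. Last coding exons held 365. For 1992 summits (93.6%) the base was coding in every transcript there, so for few of them did the coding class depend on the transcript. The near-start and first coding exon shares counted any transcript of the gene, and their dependence on alternative transcripts was not tested.

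A small set of coding exon regions lay beside genes of small non-coding RNAs, transcribed in part by RNA polymerase III. Within 200 bp of a tRNA, snoRNA, snRNA, miRNA or rRNA gene were 26 summits (1.22%), against 0.316% of eligible bases. In the own lists of replicates 1 to 4 it came to 0.746%, 0.607%, 0.947% and 0.639% (0.735% ± 0.153, SD, n = 4), above that of eligible bases in 4 of 4. The nearest gene was a tRNA in 15 cases, a snoRNA in 7, a miRNA in 3 and a snRNA in 1. Of the 26 regions, 6 were covered in all 4 replicates (23.1%), beside 2.49% of all coding exon regions. These 6, in plpr-1, R04E5.7, C08D8.1, fbxl-4, W03C9.1 and pxn-1, were picked out after their values were seen. In the merged list they ranked from 3360 (plpr-1) to 18460 (pxn-1). Coverage counted any overlapping replicate region, and whether its summit lay in the exon or at the RNA gene is not given. The share of the other merged regions near such genes is not given either. unc-104, which encodes a kinesin of synaptic vesicle transport, had a summit 140 bp from a tRNA gene, and the chemoreceptor gene srv-16 had one 25 bp from a tRNA gene. The ZK1321.4 region shown above lay 131 bp from a tRNA gene. Nearness to such genes was looked at after the values were seen, and no test was made.

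The fourth comparison asked what base composition and motifs the summits had. GC content in the 100 bp around the summit averaged 41.3% in the coding exon regions, against 36.5% in the other merged regions. Beside coding sequence the direction varied with the number of regions taken. In replicates 1 to 4 coding exon summits had 40.6%, 41.8%, 41.0% and 41.1% GC, against 41.2% at eligible coding bases, a mean difference of -0.0383 ± 0.474 points (SD, n = 4; exact sign-flip permutation test, p = 0.75, adjusted 0.808). With the 5000 highest regions of each replicate the difference turned to 0.555 points, positive in 4 of 4 replicates (exact sign-flip permutation test, p = 0.125). Windows 250 bp to either side had 36.9% ± 0.607 GC, and 49.5% ± 2.44 of their centres were coding. Flanking windows were therefore poorer in G and C than the summits, and motif shares are given both beside flanks and beside windows at eligible coding bases, a comparison added after the data were seen. The part of composition in the contrasts with flanks was not tested.

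**Figure D4:**
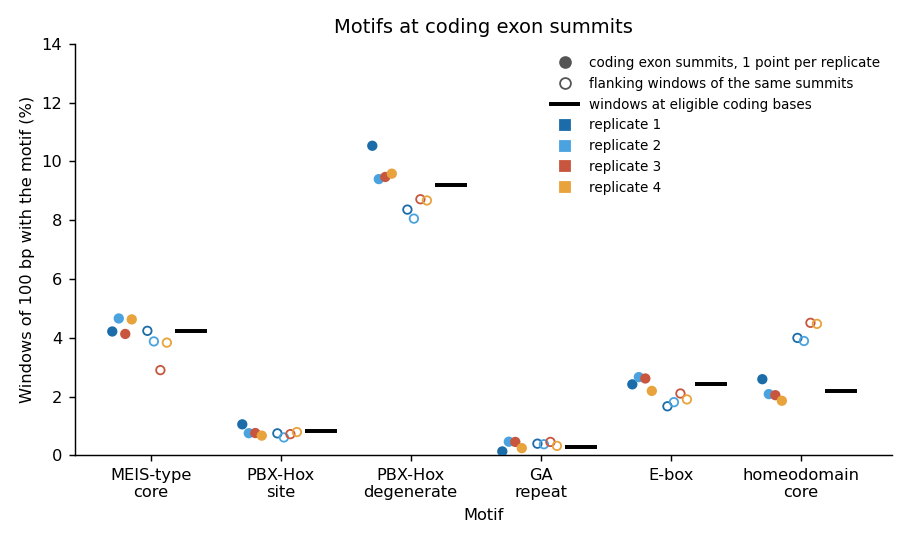
Percent of 100 bp windows with each motif on either strand at coding exon summits (filled points, 1 per replicate), in flanking windows centred 250 bp to either side (open points) and in windows at every 50th eligible coding base (black lines). The means of the MEIS-type core TGACAG, the E-box CACGTG and the homeodomain core TAATTA at summits lie away from the flanks and near the coding windows, and the degenerate PBX-Hox motif TGATNNAT is above both in all 4 replicates.

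TGACAG lay within 50 bp of 4.21%, 4.66%, 4.13% and 4.63% of the coding exon summits of replicates 1 to 4, against 4.24%, 3.88%, 2.90% and 3.83% of their flanks. It was higher at summits in 3 of 4 replicates, by 0.695 ± 0.522 points (SD, n = 4; exact sign-flip permutation test, p = 0.25, adjusted 0.35). Eligible coding windows held it in 4.22%, and the difference from these was 0.192 ± 0.273 points, positive in 2 of 4 replicates (exact sign-flip permutation test, p = 0.5, not adjusted). In the merged list 4.61% of coding exon summits held TGACAG, against 5.41% of the summits of other regions. TGATTGAT was rare, at 1.05%, 0.752%, 0.758% and 0.670% of summits, beside 0.746%, 0.607%, 0.720% and 0.791% of flanks and 0.841% of coding windows (difference from flanks 0.0920 ± 0.180 points; exact sign-flip permutation test, p = 0.375, adjusted 0.477).

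TGATNNAT, which contains every TGATTGAT, was the motif with the same direction in 4 of 4 replicates against both comparisons. It lay at 10.5%, 9.40%, 9.47% and 9.59% of summits, against 8.36%, 8.06%, 8.72% and 8.67% of flanks. The excess over flanks was 1.30 ± 0.635 points and that over the 9.21% of coding windows 0.542 ± 0.530 points, each positive in 4 of 4 replicates (exact sign-flip permutation test, p = 0.125 for each; adjusted 0.25 for the flanks, not adjusted for coding windows). By replicate the excess over coding windows was 1.33, 0.194, 0.266 and 0.379 points, so replicate 1 stood apart, and without it the mean was 0.280 ± 0.0932 points (SD, n = 3). In the merged list 9.45% of coding exon summits held TGATNNAT, against 8.78% of the summits of all other regions and 9.91% of intergenic summits. By rank it lay at 50% of the 14 optimal coding exon summits and 13.4% of those ranked 1038 to 5000. It lay at 9.69% of those ranked 5001 to 10000 and 8.19% of the rest. Shares by rank are not given for the other merged regions. The flanks of the same regions held it in 10.7%, 7.76%, 9.10% and 9.12%, so summits exceeded flanks most at high rank and not at the lowest ranks.

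The other motifs followed coding sequence. CACGTG, the E-box read by many bHLH factors, lay at 2.41%, 2.66%, 2.61% and 2.19% of summits, against 1.67%, 1.81%, 2.103% and 1.90% of flanks, higher in 4 of 4 replicates by 0.600 ± 0.252 points (exact sign-flip permutation test, p = 0.125, adjusted 0.25). Coding windows held it in 2.43%, and the difference was then 0.0393 ± 0.215 points. TAATTA, a core read by many homeodomains, was lower at summits than in flanks in 4 of 4 replicates, with a mean difference of -2.07 ± 0.567 points (2.14% ± 0.314 against 4.22% ± 0.320; exact sign-flip permutation test, p = 0.125, adjusted 0.25). Coding windows held it in 2.203%. GAGAGAGA, a repeat frequent in nematode promoters, lay near 5 coding exon summits of the merged list (0.235%), against 431 of the other summits (2.62%). In the replicates it was at 0.323% ± 0.163 of coding exon summits, beside 0.386% ± 0.0557 of flanks and 0.286% of coding windows (difference from flanks -0.0632 ± 0.149 points; exact sign-flip permutation test, p = 0.75, adjusted 0.808).

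By chromosome, coding exon regions lay close to the coding sequence available. X held 365 of them (17.2%), against 15.4% of eligible bases and 21.2% of the other merged regions. In replicates 1 to 4 the share on X was 17.1%, 17.96%, 16.98% and 16.1%, above that of eligible bases in 4 of 4 by 1.60 ± 0.776 points (SD, n = 4; exact sign-flip permutation test, p = 0.125, adjusted 0.25). Density relative to eligible bases was 1.11 on III and on X, 1.03 on I, 1.02 on II, 0.904 on V and 0.877 on IV. Among ranks 1038 to 5000, 60 of 232 coding exon regions (25.9%) were on X, while 1 of the 14 optimal ones was. The share of the other merged regions on X at these ranks was not computed, so no excess on X is read from this. On the autosomes the middle of 3 equal parts of each chromosome held 43.2% of coding exon regions, against 39.9% of eligible bases, and 43.3% ± 1.41 in the replicates.

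The fifth comparison asked which genes carried coding exon summits. They were spread thinly, over 1927 of 19973 protein-coding genes, 9.65%. Of these 1746 carried 1 region, 163 carried 2, 15 carried 3 and 3 carried 4. Genes with a region had a median of 1332 eligible bases, against 780 in genes without. The share of genes with a region rose with length, to 43.3% of genes with at least 5000 eligible bases, against 2.78% of genes with under 500. Density ran the other way, with 75.6 regions per Mb in the longest genes and 123.2 per Mb in the shortest, against 101.0 per Mb over all eligible bases.

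The 10 genes with most regions included long genes and short ones. ttn-1, which encodes a titin-like muscle protein, carried 4 regions in 54.9 kb of eligible sequence, with signals of 10.9 to 16.8. Its own lists had 6, 8, 3 and 7 coding exon regions in replicates 1 to 4. inx-7, which encodes a gap junction innexin, carried 4 in 1.26 kb, with signals of 11.5 to 22.1 and 2, 1, 1 and 2 regions in the replicates. Those at IV, 5944062 to 5944417, 5944365 to 5944720 and 5944564 to 5944919 overlapped in turn. They also shared the same region of replicate 4, at rank 2288, so they are not independent. W07E11.1 also carried 4, in 6.13 kb, with 2, 1, 2 and 0 in the replicates. The replicates listed fewer regions than the merged list in inx-7 and W07E11.1, and in 3 of 4 cases more in ttn-1.

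Among genes with 3 regions, metr-1, which encodes methionine synthase, had its strongest one 114 bp downstream of the start (II, 10926497 to 10926852; signal 31.4), with ranks of 3110, 1452 and 608 in replicates 1 to 3 and none in replicate 4. Its second region overlapped the same replicate regions, so they are not independent. The nuclear hormone receptor gene nhr-14 had regions with signals of 28.5, 20.5 and 11.04, all covered in 4 replicates, the strongest and the weakest by the same replicate regions. The nhr-14 region at X, 8475392 to 8475747, ranked 213, 2009, 636 and 13128 in replicates 1 to 4. In replicate 4 the other nhr-14 regions ranked higher, at 12247. The others with 3 were the SoxC gene sem-2, the CCR4-NOT scaffold gene let-711, the active zone gene cla-1, the contactin gene rig-6 and srv-16. In cla-1 they lay in 25.8 kb and in srv-16 in 1.01 kb. The srv-16 regions overlapped in turn, from 15931928 to 15932752 on IV. They shared the same regions of replicates 3 and 4, at ranks 3747 and 771, so they are not independent.

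Gene lists were described by density, the number of regions per eligible base divided by that over all coding sequence, beside the same ratio from each replicate's own list. Of 26 lists, 4 were above 1 in all 4 replicates, 6 were below 1 in all 4, and 16 were mixed. The merged list fell on the same side of 1 for all 10 lists of the first 2 kinds. No test was made of single lists, and 9.65% of all genes carried a region.

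**Figure D5:**
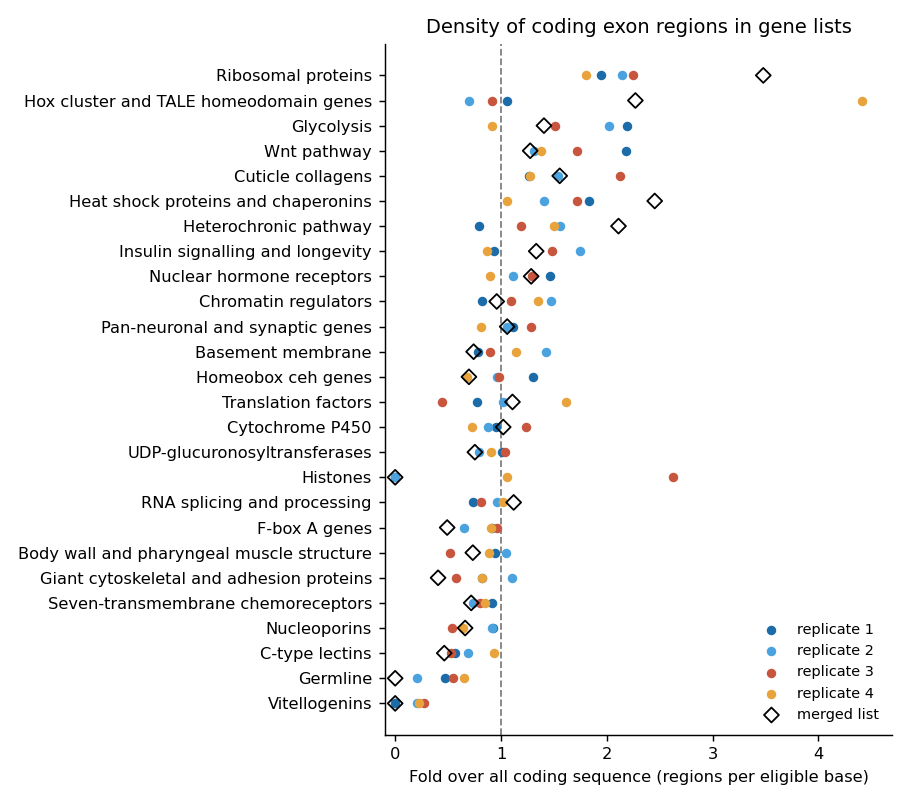
Coding exon regions per eligible base in each of 26 gene lists, as a fold over all coding sequence (dashed line at 1), for replicates 1 to 4 (points) and the merged list (diamonds), with lists ordered by the mean of the replicates. Ribosomal protein genes lie between 1.80 and 2.24 in the replicates and vitellogenins and germline genes lie below 1 in each. In the Hox and TALE list replicate 4 alone is high, at 4.41.

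Ribosomal protein genes had the highest mean density, 1.95, 2.14, 2.24 and 1.80 in replicates 1 to 4 (2.03 ± 0.197, SD, n = 4) and 3.48 in the merged list. That rests on few regions in little sequence. Only 14.2 kb were eligible, and 5 of 79 genes carried a region. They included rla-1, of the acidic P proteins of the large subunit (signal 15.8; summit 151 bp downstream of the start), rpl-25.1 (13.7; 42 bp), rpl-3 (12.4; 971 bp) and rpl-24.2 (11.9; 64 bp). The rpl-24.2 region was covered in all 4 replicates, although it ranked 14336 in the merged list. The replicate regions that overlapped it ranked 968, 2775, 5861 and 2000, and whether their own summits were coding was not looked at. Of the 4 genes named, 3 had their summit within 200 bp of the start.

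Heat shock proteins and chaperonins stood at 1.83, 1.41, 1.71 and 1.06 in the replicates (1.504 ± 0.346) and 2.45 in the merged list, with 13 of 62 genes carrying 15 regions. The strongest were in hsp-1, a constitutive HSP70 (signal 24.8), hsp-3, an HSP70 of the endoplasmic reticulum (19.1), cct-7, a chaperonin subunit (18.6), and hsp-90 (18.6). Their ranks varied widely. This hsp-1 region ranked 4354 and 140 in replicates 1 and 4 and was not listed in the others. Another, weaker hsp-1 region (signal 11.4) was covered in 3 replicates. The hsp-90 region ranked 10375 and 940 in replicates 2 and 3 alone. Cuticle collagens had 21 of 176 genes with a region, at 1.55 ± 0.405 in the replicates and 1.56 in the merged list, led by col-103, col-42 (25.99), col-90 (21.1) and dpy-4 (17.4). In the Wnt pathway 4 of 27 genes carried 6 regions, at 1.65 ± 0.401 in the replicates and 1.28 in the merged list. They were sys-1, a beta-catenin (16.6), cam-1, a Ror-type receptor (15.04), pry-1, an Axin (11.5), and gsk-3, its kinase partner (10.9).

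The 6 lists below 1 in all 4 replicates were of mixed kinds. None of 6 vitellogenins, the yolk protein genes, and none of 41 germline genes carried a merged region, and their replicates averaged 0.176 ± 0.121 and 0.468 ± 0.190. Chemoreceptors of the serpentine families had 80 of 1365 genes with a region, at 0.824 ± 0.0763 in the replicates and 0.718 in the merged list, with sro-1 (32.9), srtx-1 (20.02), str-37 (19.7) and srv-16 (18.7) the strongest. C-type lectins had 10 of 240 (0.676 ± 0.184; clec-89 at 16.5), F-box A genes 7 of 170 (0.859 ± 0.143; fbxa-50 at 15.9) and nucleoporins 4 of 26 (0.754 ± 0.198; npp-7 at 16.5). Copies within such families can share reads, and how repetitive their eligible bases are was not measured. Among called regions, 9 of the 2128 coding exon regions (0.423%) had a 31-base summit sequence that occurs again in the genome, against 1.70% of the other regions.

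The Hox cluster and TALE genes, which include the partners of UNC-62, carried 2 coding exon regions in 12 genes, in lin-39 (signal 13.3, rank 10906) and irx-1 (11.98, rank 14220). None lay in unc-62 itself, ceh-20, ceh-13, mab-5 or egl-5. Only 8.72 kb of these genes were eligible, 348 bp of them in unc-62. The replicates stood at 1.06, 0.699, 0.915 and 4.41, so replicate 4 alone was high, with 2 regions in lin-39 and 1 each in unc-62, egl-5, ceh-60 and php-3. The merged lin-39 region was not listed in replicate 4, so the 2 regions there lay elsewhere in the gene. Homeobox genes with ceh symbols were at 0.982 ± 0.256 (4 of 63 genes; ceh-36, an OTX-type factor of sensory neurons, at 19.6). Nuclear hormone receptors were at 1.19 ± 0.240 (34 of 274 genes), led by nhr-14, nhr-40 (27.6), nhr-3 (21.8) and nhr-91 (16.7).

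Among heterochronic genes, which set the timing of larval divisions, 9 of 18 carried 10 regions, 2.11 in the merged list but 1.26 ± 0.354 in the replicates, with replicate 1 at 0.789. They included lin-42, a Period-type gene (22.2), lin-41, a TRIM-NHL gene (21.04), lin-14 (17.5) and din-1, a corepressor of DAF-12 (16.5). The insulin and longevity list was at 1.25 ± 0.426 (7 of 31 genes), with daf-15, a Raptor (16.8), akt-1 (15.5), the receptor gene daf-2 (14.2) and the PI3 kinase gene age-1 (13.1). Glycolysis was at 1.66 ± 0.575 (3 of 19), with enol-1 (17.2), aldo-2 (15.2) and gpd-2 (10.8). Chromatin regulators were at 1.19 ± 0.289 (10 of 45), with hda-4 (17.4), lin-59 (16.9), let-526 (16.6) and lin-35 (15.4). All 4 lists had replicates on both sides of 1.

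Neuronal and structural genes had replicates on both sides of 1, and the structural lists were lower in the merged list. Pan-neuronal and synaptic genes had 13 of 40 genes with a region and a density of 1.07 ± 0.193 in the replicates and 1.06 in the merged list, over 149.7 kb of eligible sequence. sad-1 (27.8), cla-1 (21.9), snt-1 (19.97) and unc-104 (19.6) were the strongest, and the snt-1 region, covered in 4 replicates, holds the TGATTGAT shown above. Muscle structure genes had 11 of 49 (0.849 ± 0.230 in the replicates and 0.734 in the merged list), with tnt-3, a troponin T (23.1), lev-11, tropomyosin (20.1), ttn-1 (16.8) and myo-3 (15.7). Giant cytoskeletal and adhesion proteins had 11 of 30 (0.830 ± 0.214 in the replicates, 0.405 in the merged list). Basement membrane genes had 7 of 20 (1.06 ± 0.286 in the replicates, 0.741 in the merged list), where unc-52, the perlecan gene, reached 15.1 and emb-9, a collagen IV gene, 13.8.

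The remaining lists were close to 1 or rested on few regions. Translation factors stood at 0.966 ± 0.493 (3 of 40 genes, pab-1, eef-1B.2 and eef-1A.1), and RNA splicing and processing at 0.881 ± 0.132 (10 of 72, with ddx-35 at 15.5). Cytochrome P450 genes were at 0.949 ± 0.213 (10 of 74, with cyp-34A9 at 17.2) and UDP-glucuronosyltransferases at 0.937 ± 0.111 (7 of 67, with ugt-26 at 31.7). Histones had none of 81 genes with a region in 6.09 kb of eligible sequence, and their replicates ran from 0 to 2.62.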

How the data were processed

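The authors deposited peak lists on ce11 for each of the 4 replicates and for the merged replicates, and an optimal list thresholded by the irreproducible discovery rate. The deposited lists give a signal value, a −log10 q-value and a summit offset per region, and the merged list was derived from the replicates and a control, per the notes deposited with the files. For the aligner and the peak caller, names are not given in sources used here. The lists hold no read counts, so depth is unknown and no interval is given. Mitochondrial regions (30 each in replicates 3 and 4) and the ce10 lists were left out.

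Summits were classed with Ensembl release 115 in the order promoter, 5' UTR, coding exon, 3' UTR, intron, intergenic. A region was covered in a replicate when at least 1 bp overlapped. The rank given for a region in a replicate is that of the best overlapping region there, whatever the class of its summit. Eligible bases were compared in full, and for GC and motifs at every 50th base. Measures were computed per replicate and tested with an exact two-sided sign-flip permutation test, adjusted over 14 tests. Summit classes, the near-start window, the motif search and the sign-flip test were first checked on drawn positions or made-up inputs with known answers. The other measures were not checked in this way. Python 3.11.15, numpy 2.4.6, pandas 2.3.3 and scipy 1.17.1 were used. Named genes were those of optimal coding exon regions, of the 20 of highest signal, of the 10 genes with most regions, and up to 4 per gene list. The regions, the lists and the motifs were chosen with earlier results of these data known. Alternatives were other promoter windows, region numbers, overlap rules and comparison windows, and leaving out each replicate.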

Additional observations from a re-analysis of the deposited data

Results flagged for a closer look

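Of 45 measures with a value in each of the 4 replicates, 3 had 1 replicate far from the others, where chance alone flags about 1 in 20 groups. The share of coding exon summits with TGATNNAT was 10.5% in replicate 1, against 9.40%, 9.47% and 9.59% in replicates 2 to 4. The density of coding exon regions in Hox cluster and TALE genes was 4.41-fold in replicate 4, against 1.06, 0.699 and 0.915 in replicates 1 to 3. The density in F-box A genes was 0.648-fold in replicate 2, against 0.918, 0.962 and 0.909 in replicates 1, 3 and 4. The cause was not tested for any of the 3.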

How the results depend on the processing

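Of 133 alternative values for 16 results, 125 kept the direction of the reported value or stayed within its spread, 7 turned the direction and 1 moved. All 7 turned values belong to differences near 0. The GC difference at coding exon summits became 0.555 points with 5000 regions per replicate, 0.0725 with 25 bp on each side and 0.131 without replicate 1. The TGATTGAT difference became -0.114 points with 5000 regions and -0.0324 with coding windows as comparison. The GAGAGAGA difference became 0.0368 with coding windows and 0.00357 without replicate 1. Among merged regions of signal above the list's median, 755 had coding exon summits, against 2128 in the whole list. A smaller number follows from the cut by construction. The coding exon share was also lower at high rank, with 5.85% of ranks 1038 to 5000 against 15.1% of ranks 10001 to 18556. The cause of that lower share and of the turned values was not tested. Leaving out each replicate gave -12.8 to -9.48 points for the coding exon share at high rank, -11.7 to -8.39 for recurrence, 1.63 to 2.90 for the first coding exon share, 1.35 to 3.16 for the near-start share, -28.3 to -14 bp for exon length and 1.29 to 1.92 for the share on X. It gave -0.250 to 0.131 for GC, 0.517 to 0.935 for TGACAG, 0.0203 to 0.163 for TGATTGAT, 1.01 to 1.48 for TGATNNAT, -0.113 to 0.00357 for GAGAGAGA, 0.516 to 0.704 for CACGTG and -2.30 to -1.89 for TAATTA. With 5000 regions per replicate the excess was larger for the first coding exon share (6.24 points), the near-start share (6.39) and the share on X (4.10). With promoter windows of 500 or 2000 bp there were 2316 or 1694 coding exon regions. No paired analysis was possible because there is 1 group, and the tests compare measures within each replicate. Beside coding windows, leaving out 1 replicate could turn the mean for each motif other than TGACAG and TGATNNAT, such as TAATTA (0.0371 without replicate 4) and CACGTG (-0.0244 without replicate 2), a choice added after seeing the data. Depth is unknown, and the exact sign-flip test with 4 replicates cannot go below 0.125.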
